A study of Mus musculus with 9 samples.

Results

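Kinesins are motor proteins that use ATP to move along microtubules or to shorten them. One branch of the superfamily builds the mitotic spindle, aligns chromosomes and completes cytokinesis, and its genes are mostly switched on late in the cell cycle. Another branch carries vesicles, organelles and ciliary components in cells that need not be dividing. The kinesin genes examined here were all genes whose single symbol in the annotation of the array is Kif followed by a number and an optional letter. There were 37 such genes of 18193 genes with a single-symbol probe set, and they were represented by 99 of 45037 probe sets. The 25 genes with several probe sets were each represented by the probe set with the highest mean over the arrays. Values of the others are given where they differ in sign. By their known roles 12 genes were grouped as mitotic, 13 as transport and 12 as other kinesins. The other group holds *Kif2a*, *Kif6*, *Kif7*, *Kif9*, *Kif12*, *Kif21a*, *Kif21b*, *Kif24*, *Kif26a*, *Kif26b*, *Kif27* and *Kif28*. Motors with other names, such as *Cenpe* and *Kifc1*, are not members.

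MC3T3-E1 is an established preosteoblast line from the calvaria of newborn C57BL/6 mice. All cells had been grown for 14 days in medium with ascorbic acid and β-glycerophosphate, reseeded, and cultured for 24 h. The LIPUS cells then received low-intensity pulsed ultrasound (30 mW/cm2, 1.5 MHz, 20 min) through the bottom of the dish, followed by culture for 6 h or 24 h, and control cells were mock-treated. Each group had 3 arrays, numbered 1 to 3 as experiments, and LIPUS arrays were compared with the control array of the same number. How long mock-treated cells were cultured after the mock treatment is not stated in the sources used here, and in a comparison with them LIPUS and time in culture cannot be told apart. The labels do not say whether the numbered samples came from separate cultures, and p-values measure only the spread between these arrays.

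Values are log2 signals. A gene was called changed at an adjusted p under 0.05 from limma, fitted to all 45037 probe sets with the experiment as a block. A probe set was taken as bright when its mean lay in the highest 40% of probe sets, at a log2 signal of 5.84 or more. This was so for 24 of the 37 kinesins, namely 9 mitotic, 10 transport and 5 other ones. Median signals were 4.89 to 5.15 over the arrays, and the 3 arrays in a group set the precision of every value. The cells carried the markers of their label in part. Of 8 measured osteoblast markers 6 were bright, with *Col1a1* at 12.43 to 12.95, while *Alpl* at 4.47 to 5.59 and *Ibsp* at 2.73 to 4.10 were not. None of 4 macrophage and 4 endothelial markers was bright, against 1 of 3 keratinocyte markers (*Krt14*) and 1 of 4 neuronal ones (*Map2*).

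At 24 h after LIPUS 5 of the 12 mitotic kinesins were lower than in control cells and 0 were higher. The genes were *Kif18b*, *Kif20a*, *Kif20b*, *Kif22* and *Kif23*. Over all genes, with 1 probe set each, 1.57% were lower and 2.57% higher at this time, and among the bright ones 2.82% and 4.56%. Of the 13 transport and the 12 other kinesins 0 were lower and 0 higher. The falls were small. The mean of the called genes at 24 h was between 0.788 and 0.891 of the control level, and no kinesin passed a ratio of 1.5 in all 3 experiments. Over the 99 probe sets of kinesins 3, 0 and 1 were lower by this ratio in experiments 1, 2 and 3. All 5 calls were lost without the block for the experiment, without experiment 1, without experiment 2, and when only the control and 24 h arrays were fitted, each of which left 0 calls among kinesins and 1, 0, 49 and 5 among all 45037 probe sets, against 1229. Without the intensity trend 1 kinesin and 522 probe sets were called, and with each array centred on its median 2 and 951. In RNA from whole dishes, fewer dividing cells and less of a transcript in each cell cannot be told apart.

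**Figure D1:**
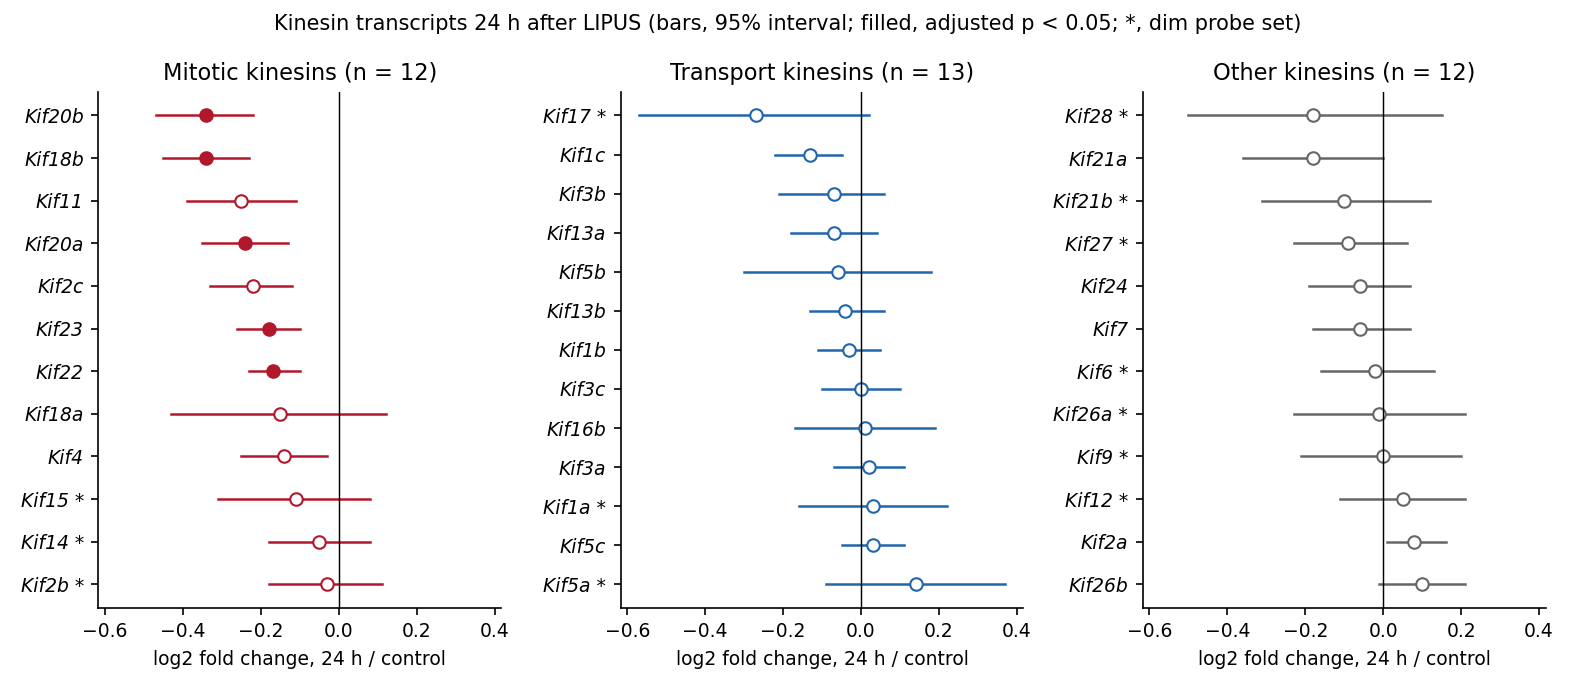
The log2 fold change from control to 24 h after LIPUS (horizontal axis) of each of the 37 kinesins, in 3 panels by role. Points are limma estimates from all 9 arrays, bars are 95% intervals, filled points had an adjusted p under 0.05 and asterisks mark probe sets outside the brightest 40%. All 12 mitotic estimates lie below 0 and 5 are filled, while the transport and other estimates lie on both sides. *Kif2a*, which also acts on spindles, is shown with the other kinesins and lies above 0.

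*Kif18b* encodes a kinesin that shortens astral microtubules. Its log2 signal was 8.06, 8.24 and 8.07 in the control arrays of experiments 1, 2 and 3, 8.11, 8.42 and 8.03 at 6 h, and 7.73, 7.93 and 7.68 at 24 h. Every 24 h array lay below every other array. The log2 fold change at 24 h was -0.34 (SE 0.05), with an adjusted p of 0.0132 by limma. *Kif22* encodes a chromokinesin that pushes chromosome arms away from the spindle poles. Its signal was 10.68, 10.77 and 10.73 in control cells and 10.51, 10.54 and 10.63 at 24 h, again without overlap. It fell by 0.17 (SE 0.03), with an adjusted p of 0.0333 by limma. These were the only kinesins of 37 whose 24 h and control arrays did not overlap, against 0.792% of all genes that were lower and 1.09% that were higher in this way.

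The other 3 called genes encode motors of late mitosis. *Kif20b* encodes a motor of cytokinesis, and its signal was 10.03, 10.27 and 9.56 in control cells and 9.59, 9.90 and 9.33 at 24 h. The groups overlapped because experiment 3 was low throughout, and within each experiment the 24 h array was the lowest. It fell by 0.34 (SE 0.05), with an adjusted p of 0.0223 by limma. *Kif20a* encodes the motor that brings the chromosomal passenger complex to the central spindle. Its signal was 9.82, 9.90 and 9.48 in control cells and 9.46, 9.69 and 9.32 at 24 h, a change of -0.24 (SE 0.05) with an adjusted p of 0.0485 by limma. *Kif23* encodes the motor subunit of centralspindlin, which bundles microtubules between the separating chromosomes. Its signal was 9.29, 9.33 and 8.90 in control cells and 9.03, 9.18 and 8.78 at 24 h, a change of -0.18 (SE 0.03) with an adjusted p of 0.0472 by limma. In each of these genes the difference between experiments was as large as the change, and the fall is seen within experiments.

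**Figure D2:**
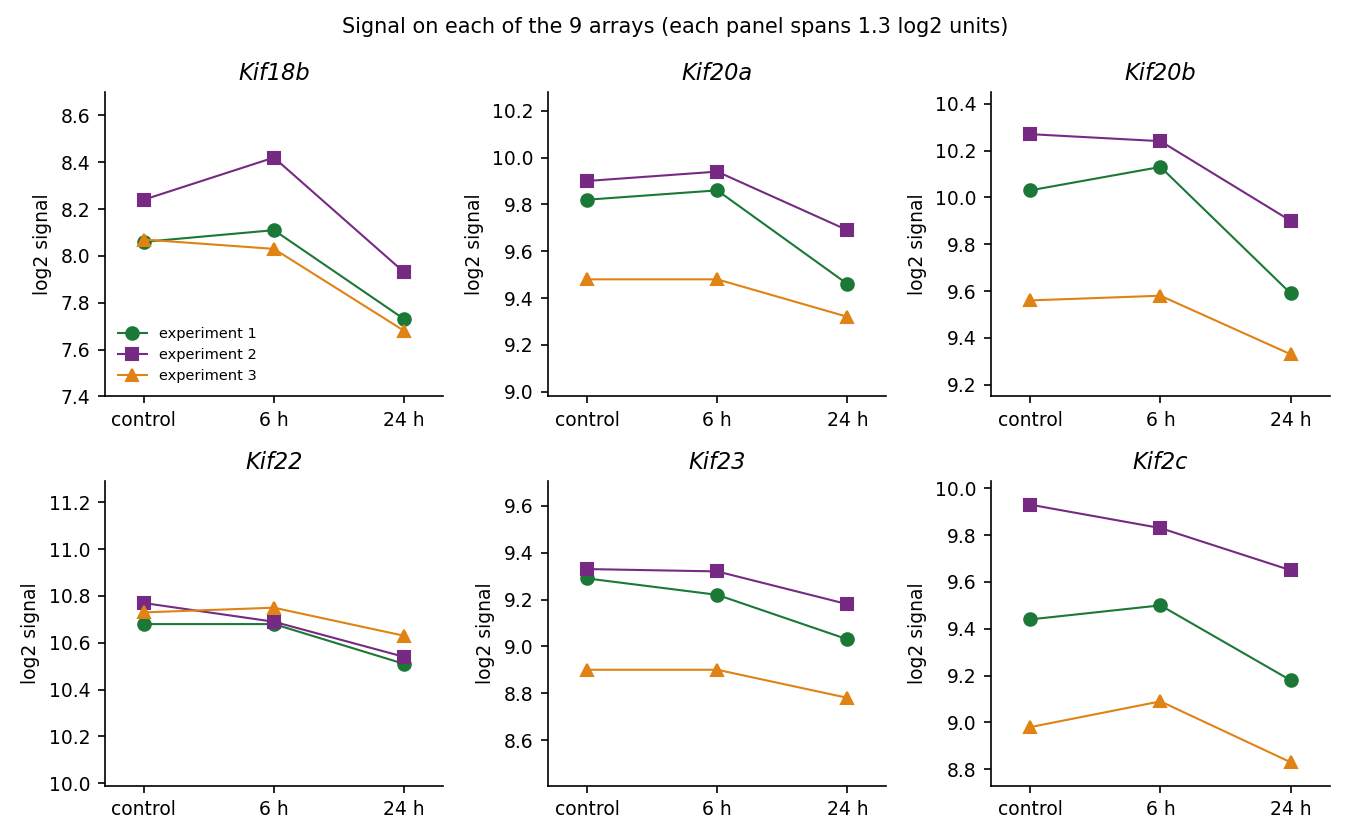
Log2 signal (vertical axis) of 6 mitotic kinesins on each of the 9 arrays, for control cells and at 6 h and 24 h after LIPUS (horizontal axis). Lines join the arrays of the same experiment, and each panel spans 1.3 log2 units. In every gene and experiment the 24 h array is the lowest of the 3, and the experiments differ in level.

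A further 4 mitotic kinesins with bright probe sets were not called at 24 h. *Kif2c*, the microtubule depolymerase of the centromere, had 9.44, 9.93 and 8.98 in control cells and 9.18, 9.65 and 8.83 at 24 h. Its log2 fold change of -0.22 had an adjusted p of 0.0527 (limma, 95% interval -0.33 to -0.12). *Kif11*, the motor that pushes the spindle poles apart, had a log2 fold change of -0.25 (95% interval -0.39 to -0.11), with -0.39, -0.25 and -0.11 in the 3 experiments. The value of *Kif4*, a chromokinesin that also works at the central spindle, was -0.14 (-0.25 to -0.03). *Kif18a*, which dampens chromosome movement at the metaphase plate, had -0.15 (-0.43 to 0.12), and here experiment 3 went the other way at 0.20. The remaining mitotic kinesins, *Kif14*, *Kif15* and *Kif2b*, were dim, with log2 fold changes of -0.05, -0.11 and -0.03.

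The classes were also compared within experiments. Of the 9 bright mitotic kinesins 8 were below the control in all 3 experiments, against 12.4% of all bright genes, and 1 of the 10 bright transport kinesins was. The transport count depends on the probe set used. That of *Kif1b* had -0.08, 0.00 and -0.02 and did not count. Other bright ones of *Kif1b*, at -0.30, -0.07 and -0.15 and at -0.11, -0.08 and -0.05, were below in all 3. The rest of its probe sets reached 0.00 or above in an experiment. The share over bright genes is held down by exact ties, which cannot count as below. Of 9998 bright genes 17, 3173 and 1978 had the same value at 24 h as in the control in experiments 1, 2 and 3, against 0, 0 and 0 of the 9 mitotic and 0, 2 and 1 of the 10 transport kinesins. In 8 of the 9 the 24 h array was the lowest of the 3 arrays in every experiment, against 9.96% of bright genes. The median log2 ratio of the bright mitotic kinesins was -0.33, -0.25 and -0.12 in experiments 1, 2 and 3. That of the bright transport kinesins was -0.10, -0.02 and 0.02, and that of all bright genes was 0.00, 0.00 and 0.01. Over all 12 and all 13 members the median log2 fold changes were -0.17 and -0.03, and the difference between the medians was -0.19, -0.21 and -0.11 in the 3 experiments. *Kif2a*, placed among the other kinesins, also acts on spindles and was above the control in all 3 experiments. With *Kif2a* counted as mitotic and *Kif21a* and *Kif21b* as transport, the median log2 fold changes were -0.17 and -0.04. The difference between the classes is given as a description, without a test. The transport class was itself below 0 in experiment 1, and the size of the fall in the mitotic class was smallest in experiment 3.

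**Figure D3:**
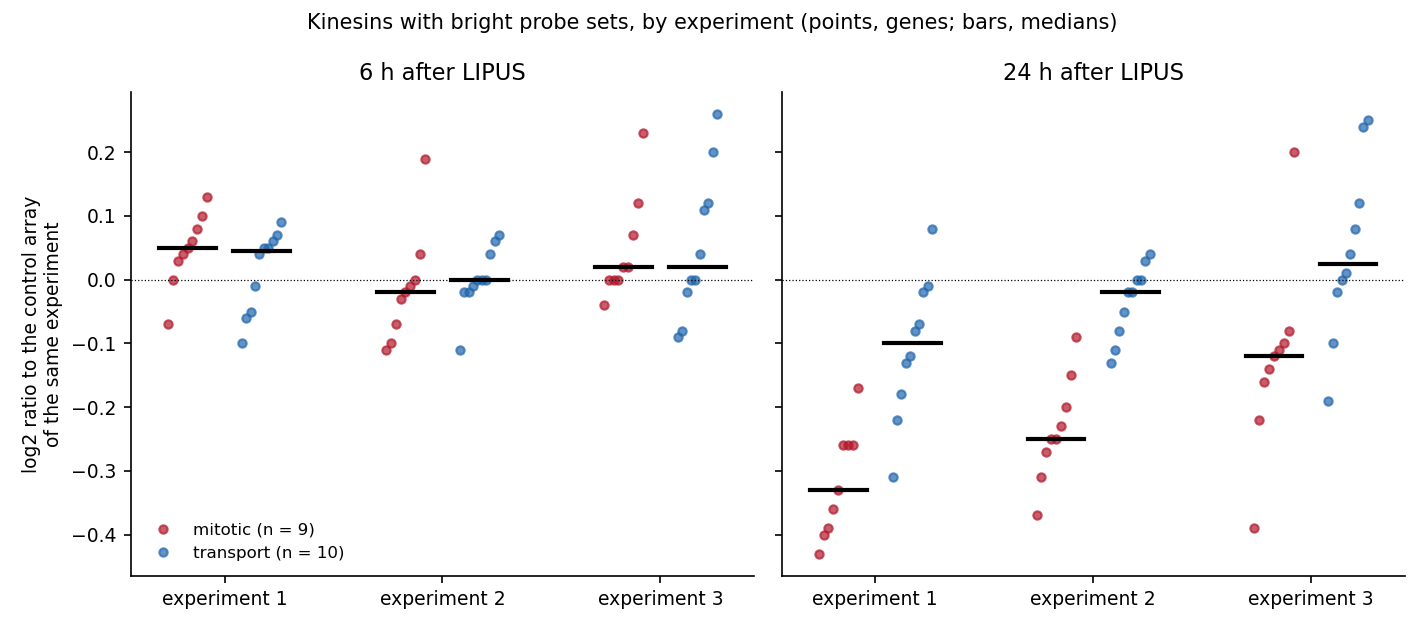
Log2 ratio to the control array of the same experiment (vertical axis) of the 9 mitotic and 10 transport kinesins with bright probe sets, at 6 h and at 24 h after LIPUS, by experiment. Points are genes and black bars are medians. At 6 h both classes lie around 0, and at 24 h the mitotic medians of -0.33, -0.25 and -0.12 lie below the transport medians of -0.10, -0.02 and 0.02.

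Of the 13 transport kinesins 0 were called at 24 h, and the estimates of the bright ones lay between -0.13 and 0.03. *Kif1c*, a motor of vesicle transport, had the largest change among the bright ones, with 9.71, 9.96 and 9.71 in control cells and 9.59, 9.87 and 9.52 at 24 h. It was lower in all 3 experiments and was not called, at a log2 fold change of -0.13 (95% interval -0.22 to -0.05, adjusted p = 0.151 from limma). *Kif3b*, a subunit of the motor that carries cargo into cilia, had -0.07, which came from experiment 1 at -0.22, while the other two ratios were 0.00. *Kif13a*, a motor of endosomes, had -0.07 as well. *Kif5b*, the widely expressed heavy chain of conventional kinesin, had -0.31, -0.11 and 0.24 in the 3 experiments and a mean of -0.06. *Kif16b*, a motor of early endosomes, showed the same order, with -0.18, -0.02 and 0.25. At the probe sets used, the 95% intervals of the 10 bright transport kinesins ran from -0.30 to 0.19. This does not reach the estimate of -0.34 in *Kif20b*, but it covers smaller falls and overlaps the interval of *Kif20b*, -0.47 to -0.22. Another bright probe set of *Kif5b* had an interval of -0.55 to 0.34.

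The remaining transport motors with bright probe sets had narrow ranges. *Kif1b*, *Kif3a*, *Kif3c*, *Kif5c* and *Kif13b* had log2 fold changes of -0.03, 0.02, 0.00, 0.03 and -0.04 at 24 h. The kinesins known mainly from neurons, *Kif1a*, *Kif5a* and *Kif17*, were dim. *Kif17* had a mean of -0.27, which rested on experiment 3 at -0.66 against 0.01 and -0.18 in the other two, and the adjusted p was 0.443 (limma). Among the other kinesins, *Kif21a*, which restrains microtubule growth, had -0.41, -0.11 and -0.03 in the 3 experiments and a mean of -0.18 (adjusted p = 0.391). *Kif2a*, a depolymerase that acts in neurites as well as on spindles, had 0.08, 0.09 and 0.08 and a mean of 0.08 (95% interval 0.01 to 0.16, adjusted p = 0.334). *Kif26b*, an atypical kinesin of developing tissues, had 0.10, and *Kif7*, which acts in Hedgehog signalling at the cilium tip, had -0.06. *Kif24*, which acts at the centriole, had -0.06, and the dim members of this group lay between -0.18 and 0.05.

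Probe sets of the same mitotic gene mostly moved together when they were bright. All 16 bright probe sets of mitotic kinesins were below 0 at 24 h, with log2 fold changes of -0.39 to -0.14. Of them 5 were called lower, against 0.933% of all probe sets, bright and dim, that were lower and 1.8% that were higher. Calls were more frequent among bright genes, with 1 probe set each, of which 2.82% were lower and 4.56% higher. Of the 9 dimmer ones 5 were below 0, at -0.14 to 0.08, and 0 were called. For *Kif20b* a second bright probe set had -0.65, -0.54 and 0.02 in the 3 experiments and was not called, and its 2 dim ones had 0.03 and 0.08. For *Kif2c* a second bright probe set had -0.68, -0.40 and -0.10, with a mean of -0.39 and an adjusted p of 0.177 from limma. A second bright probe set of *Kif23* went from -0.57 in experiment 1 to 0.43 in experiment 3. *Kif22* had -0.22 and -0.16 at its other probe sets, with 0.06 in experiment 3 at the latter. The probe sets used for *Kif2c* and *Kif22* are of the type marked _x_at, whose probes can match other transcripts. Of the 27 bright probe sets of transport kinesins 16 were below 0, at -0.17 to 0.12, and 0 were called. By gene, the probe sets of *Kif1c* and *Kif3b* lay on both sides of 0, at -0.13 to 0.06 and -0.07 to 0.11. So did those of the mitotic *Kif18a* and *Kif23*, at -0.15 to 0.02 and -0.18 to 0.07. Among the other kinesins *Kif2a* and *Kif21a* did so as well, at -0.08 to 0.14 and -0.22 to 0.04. The other bright probe sets of *Kif2a* had 0.00. The probe sets of *Kif5a*, *Kif5b*, *Kif5c* and *Kif13b* lay on both sides of 0, at -0.01 to 0.14, -0.11 to 0.02, -0.02 to 0.07 and -0.11 to 0.06, and those of *Kif3a* were all above it, at 0.02 to 0.12. Those of *Kif1b* (7 of 7, at -0.17 to -0.03), *Kif13a* (5 of 5, at -0.11 to -0.06) and *Kif17* (3 of 3, at -0.27 to -0.06) were all below it, and the probe set used for *Kif1b* had the smallest change of its 7.

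**Figure D4:**
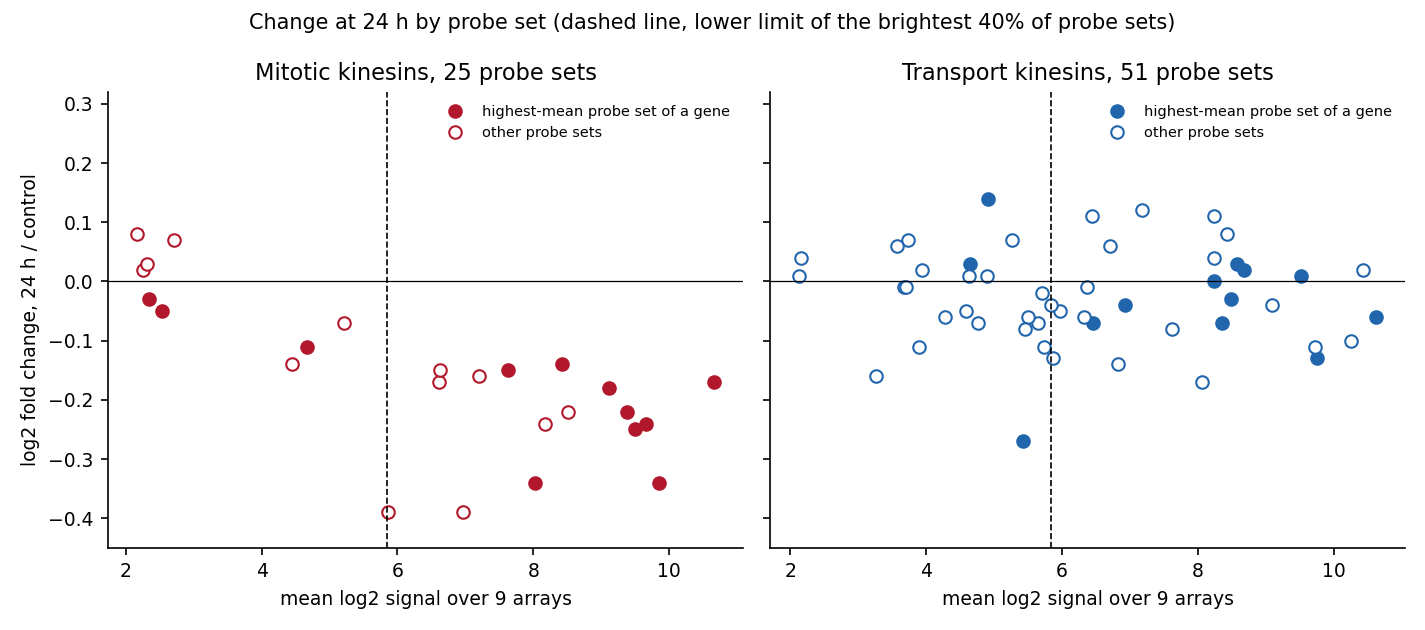
Log2 fold change from control to 24 h (vertical axis) against the mean log2 signal over the 9 arrays (horizontal axis) for the 25 probe sets of mitotic and the 51 probe sets of transport kinesins. Filled points are the probe sets used for a gene, and the dashed line marks a signal of 5.84, the lower limit of the brightest 40%. To the right of the line all 16 mitotic points lie below 0, and the 27 transport points lie on both sides.

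At 6 h after LIPUS no kinesin was called, and the spread of values was narrow. Limma called 0 of 37 kinesins and 0% of all genes, and at an unadjusted p under 0.05 there was 1 kinesin, *Kif2a*, against 3.8% of all genes. The methods' t-test gave 0 kinesins at an unadjusted p under 0.05. *Kif2a* had 0.10, 0.16 and 0.04 in the 3 experiments and a mean of 0.10 (95% interval 0.03 to 0.18, adjusted p = 0.959 from limma). The 9 bright mitotic kinesins had log2 fold changes of -0.03 to 0.08 at 6 h, with a median of 0.03. Of them 0 were below the control in all 3 experiments, against 4.14% of bright genes, and with so low a share this shows no difference. Exact ties cannot count as below. They were found in 0, 1 and 3 of the 9 in experiments 1, 2 and 3, and in 46, 3125 and 3297 of 9998 bright genes. The 10 bright transport kinesins had -0.05 to 0.09, with a median of 0.04. *Kif18b* and *Kif20b*, the genes with the largest falls at 24 h, had 0.06 (95% interval -0.05 to 0.17) and 0.03 (-0.10 to 0.16) at 6 h.

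Between 6 h and 24 h after LIPUS 4 mitotic kinesins fell. Both groups had LIPUS and no mock array is labelled with either time, so time since LIPUS and time in culture cannot be told apart. The comparison shares its 24 h arrays with the one above. Its log2 fold changes do not use the control arrays, while its error estimate does. They were the only calls among the 37 kinesins, with 0 higher, against 1.49% of all genes that were lower and 1.75% that were higher. *Kif18b* had -0.38, -0.49 and -0.35 in the 3 experiments and a mean of -0.41 (SE 0.05), with an adjusted p of 0.00857 by limma. *Kif20b* had -0.54, -0.34 and -0.24, with a mean of -0.37 (adjusted p = 0.0203). *Kif20a* had -0.27 (adjusted p = 0.04) and *Kif2c* had -0.25 (adjusted p = 0.043). *Kif11*, *Kif22* and *Kif23* had -0.30, -0.15 and -0.15 and adjusted p-values of 0.0636, 0.0638 and 0.101. All 9 bright mitotic kinesins were lower at 24 h than at 6 h in all 3 experiments, against 14.7% of bright genes, and 3 of the 10 bright transport kinesins were. Here too 0 of these calls were left when the block, experiment 1 or experiment 2 was dropped or when the control arrays were not fitted, and of all probe sets 0, 0, 44 and 8 were then called, against 909.

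The promoters of the mitotic kinesins are shown because many genes of late mitosis share a promoter element, whose part in the changes above was not tested. That element, the cell cycle genes homology region (CHR), has the letters TTTGAA and lies near the start of transcription, often downstream of CCAAT boxes, which bind the factor NF-Y. RefSeq promoters of GRCm38.p6, from 250 bases before to 50 bases after the annotated start, were searched on both strands for TTTGAA and CCAAT. Promoters of 11 mitotic, 10 transport and 10 other kinesins were searched. For *Kif5a*, *Kif13b*, *Kif21b* and *Kif28* no promoter entry was found. *Kif5b* and *Kif20a*, the latter called at 24 h, were not searched because members on their chromosome were left out. The following 100 bases run 5′ to 3′ on the strand of the gene, from position -70 to position 30 with the first transcribed base as 1. Capitals mark TTTGAA and CCAAT, or their reverse complements. The first 4 genes were called at 24 h, *Kif11* and *Kif4* are mitotic and were not called, and *Kif1c* and *Kif13a* are transport kinesins. The windows are examples and do not stand for their classes. Mitotic promoters without TTTGAA in this window, such as those of *Kif2c* and *Kif18a*, are not shown. Neither are the transport promoters of *Kif1a*, with TTTGAA here, and of *Kif3a* and *Kif3b*, with CCAAT here.
*Kif18b*, chr11:102925095-102925194, minus strand: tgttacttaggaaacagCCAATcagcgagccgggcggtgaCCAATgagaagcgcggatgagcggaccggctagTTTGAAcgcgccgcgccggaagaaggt
*Kif20b*, chr19:34922288-34922387, plus strand: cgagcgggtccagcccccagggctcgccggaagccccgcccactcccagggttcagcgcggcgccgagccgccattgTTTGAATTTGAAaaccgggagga
*Kif22*, chr7:127042391-127042490, minus strand: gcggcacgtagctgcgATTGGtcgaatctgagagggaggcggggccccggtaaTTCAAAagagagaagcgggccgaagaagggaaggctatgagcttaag
*Kif23*, chr9:61946770-61946869, minus strand: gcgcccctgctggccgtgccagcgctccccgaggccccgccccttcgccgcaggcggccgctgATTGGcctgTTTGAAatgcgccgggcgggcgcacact
*Kif11*, chr19:37376312-37376411, plus strand: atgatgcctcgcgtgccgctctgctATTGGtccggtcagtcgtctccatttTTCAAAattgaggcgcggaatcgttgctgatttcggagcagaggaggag
*Kif4*, chrX:100625995-100626094, plus strand: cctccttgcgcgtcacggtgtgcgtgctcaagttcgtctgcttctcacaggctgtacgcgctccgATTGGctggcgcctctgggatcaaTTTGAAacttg
*Kif1c*, chr11:70700478-70700577, plus strand: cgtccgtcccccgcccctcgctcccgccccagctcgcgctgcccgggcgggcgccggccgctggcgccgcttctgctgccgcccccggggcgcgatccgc
*Kif13a*, chr13:46929689-46929788, minus strand: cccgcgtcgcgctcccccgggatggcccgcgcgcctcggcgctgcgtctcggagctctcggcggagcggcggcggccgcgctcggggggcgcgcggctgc

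In these windows TTTGAA stood at positions 4 to 9 of *Kif18b*, 3 to 8 of *Kif23* and 20 to 25 of *Kif4*, and as a tandem pair at 8 to 13 and 14 to 19 of *Kif20b*. On the opposite strand it lay at -17 to -12 of *Kif22* and at -19 to -14 of both *Kif11* and *Kif15*. Within these 100 bases 7 of 11 mitotic promoters held the motif, against 5.11% of all 32851 promoters in the table, and within 300 bases 9 of 11 did, against 17.9%. Of 12 transport promoters 1 held it in either window, that of *Kif1a*, and of 12 other promoters 2 did within 300 bases, those of *Kif26b* and *Kif27*. CCAAT was present within 300 bases in 7 of 11 mitotic, 4 of 12 transport and 4 of 12 other promoters, against 37.4% of all. In *Kif4*, *Kif11*, *Kif18b*, *Kif22* and *Kif23* it lay 5′ of the TTTGAA match nearest to the start. In *Kif14* the order was the opposite, with TTTGAA at -228 to -223 and CCAAT at -92 to -88. *Kif2c* held TTTGAA only farther away, at -103 to -98, and *Kif18a* held neither motif. A match to these letters is a description of the sequence, and binding was not measured.

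**Figure D5:**
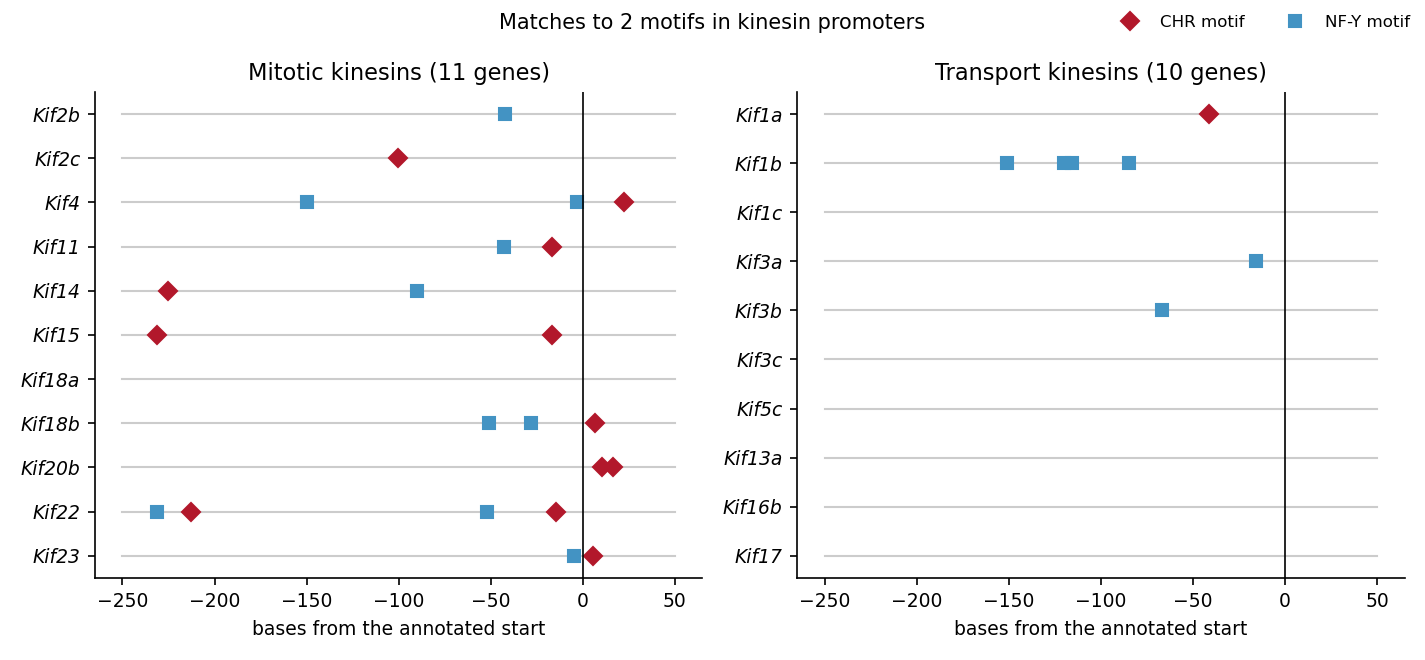
Positions of matches to the CHR motif (diamonds) and to the NF-Y motif (squares) in the promoters of 11 mitotic and 10 transport kinesins. The horizontal axis gives bases from the annotated start and spans the searched 300 bases, and genes with 2 promoters, *Kif1a* and *Kif1b*, have both on 1 line. CHR matches lie within 100 bases around the start in 7 mitotic kinesins and in 1 transport kinesin.

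Partners of the mitotic kinesins were called as well. Of 20 measured genes for proteins that work with mitotic motors, 14 were lower and 0 higher at 24 h, against 1.57% of all genes that were lower and 2.57% that were higher. All 20 were bright, and among bright genes 2.82% were lower and 4.56% higher. Their median log2 fold change was -0.30, and 0 were called at 6 h. At most 1 of these calls can remain without the block, where 1 probe set of the whole array was called, and without experiment 1 there were 0. *Hmmr*, a spindle protein gene, had -0.43, *Cdca8*, a gene of the chromosomal passenger complex, -0.40, and *Ccnb2*, a mitotic cyclin gene, -0.40. *Racgap1*, which encodes the partner of Kif23 in centralspindlin, had -0.35 (adjusted p = 0.0217 from limma), and *Prc1*, which encodes the microtubule bundler that recruits Kif4, had -0.31 (adjusted p = 0.00582). Both were picked out after their values had been seen. Partners that were not called included *Ect2* at -0.19, *Incenp* at -0.20, *Cit* at -0.15 and *Numa1* at -0.01. Their adjusted p-values were 0.629, 0.173, 0.494 and 0.927 from limma. Of 17 light chains, adaptors and cargo linkers of transport kinesins 0 were called, with a median of 0.01, and of 19 genes of intraflagellar transport, the cargo system of ciliary kinesins, 0 were called, with a median of 0.00. Over all genes the median was 0.00.

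Dynein and tubulin genes were examined beside the kinesins. Of 20 genes of dynein and dynactin, the motor that runs towards the opposite end of microtubules, 1 was lower at 24 h, *Pafah1b1*, a regulator of dynein, at -0.21 (adjusted p = 0.00869 from limma). Of 11 tubulin genes 2 were lower, *Tuba4a* at -0.41 and *Tubb4b* at -0.17, with a median over the list of -0.15. Both counts stand beside the 1.57% of all genes that were lower. Of 6 motors of the superfamily with other symbols 0 were called against the control. From 6 h to 24 h 2 of these were lower, at -0.38 each, against 1.49% of all genes that were lower. They were *Cenpe*, which encodes the kinesin of the kinetochore, and *Kifc1*, which encodes a minus-end motor of the spindle. The adjusted p-values were 0.0239 and 0.0151 from limma. Neither call was left without the block or without experiment 1, where 0 probe sets were called in this comparison. *Kifc3* and *Stard9* had 0.01 and -0.04 in this comparison.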

How the data were processed

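The authors made cRNA from total RNA, hybridized it to whole-genome mouse arrays and deposited log2 signals that were made with RMA, per the labels, which give no version or settings. The 9 columns were used as deposited, with no further transformation. The 64 control probe sets were left out, and gene symbols were read from the platform annotation. The 37 kinesin symbols all matched RefSeq through their gene identifiers, and 1 probe set that names a kinesin beside another gene was left out.

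Limma 3.58.1 in R 4.3.3 was run with lmFit and eBayes, an intensity trend and the replicate number as a fixed block, which left 4 residual and 3.00 prior degrees of freedom. Adjustment followed Benjamini and Hochberg and ran over 45037 probe sets. The numbers were taken to pair the arrays, because deviations from the group means correlated at 0.701 to 0.933 in the 9 pairs of arrays of the same number and at -0.674 to 0.009 in the 18 others. The deviations cancel out within a group, so the low values of the 18 follow in part from the high values of the 9. Arrays of the same number also shared exact values for many probe sets, and the part of this in the correlations was not tested. The procedure was tested on simulated data with the residual spread of these arrays. It recovered 10 of 50 probe sets lowered 1.2-fold at 24 h, 32 of 50 lowered 1.5-fold and 45 of 50 lowered 2-fold. In the simulation 5 unchanged probe sets were called. Falls of 1.2-fold were thus mostly missed, and a kinesin that was not called may still have changed by this much. Alternatives concerned the block, the variance prior, the normalization, a filter on dim probe sets, the arrays, the probe set for a gene, the test and the classes.

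The members, classes and lists were chosen with earlier results of these data known. Named genes were every called kinesin, *Kif2c* and *Kif20b*, which the paper lists, members whose probe sets disagree in call or sign, the 3 largest changes of each class among bright probe sets, and up to 3 called genes of each partner list. *Racgap1*, *Prc1*, *Ect2*, *Incenp*, *Cit*, *Numa1*, *Kifc3* and *Stard9*, and the fuller values of *Kif4*, *Kif16b* and *Kif17*, fall outside this rule. They were chosen after the values were seen.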

Additional observations from a re-analysis of the deposited data

Results flagged for a closer look

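Of the 37 kinesins, 4 differed between 6 h and 24 h after LIPUS by limma's direct comparison of these times, against 3.24% of all genes. Each was lower at 24 h in 3 of 3 experiments. Of these calls 0 were left without the block, without experiment 1, without experiment 2 or with only the arrays of the 2 groups. Time since LIPUS and time in culture cannot be told apart in this comparison. *Kif18b* differed by a log2 value of -0.41, *Kif20b* by -0.37, *Kif20a* by -0.27 and *Kif2c* by -0.25, with adjusted p-values of 0.00857, 0.0203, 0.04 and 0.043. Their log2 fold changes against the control at 6 h were 0.06, 0.03, 0.03 and 0.03.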

How the results depend on the processing

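The count of kinesins called at 24 h against control was 5 and that at 24 h against 6 h was 4, and every call under any alternative was a fall. Without the replicate block both counts were 0. Leaving out each experiment gave 0 to 6 in both, with 0 without experiment 1, 0 without experiment 2 and 6 without experiment 3. With only the arrays of the 2 groups both counts were 0, and by the methods' t-test they were 2 and 2 at an unadjusted p under 0.05 and 0 and 0 after adjustment. Both were 1 without the intensity trend and 2 with each array centred on its median, and with the mean of all probe sets of a gene they were 3 and 2. Among the brightest 40% of probe sets they were 7 and 7. At 24 h against control 1229 probe sets were called, against 1 without the block, 0, 49 and 1439 without experiments 1, 2 and 3, 5 with the arrays of 2 groups, 522 without the trend, 951 with median centring and 1914 among the bright ones. Robust and quantile settings kept all 5 and all 4 genes. At 6 h the count was 0 under every alternative. The median log2 fold changes of the classes at 24 h and their difference moved by less than the spread between experiments under every alternative run. At 6 h the transport median was 0.04 among bright probe sets and -0.01 with the mean of probe sets, against 0.01, and the difference between the classes was -0.01 among bright probe sets, against 0.02. The causes were not tested. *Kif18b* kept its call at 24 h under 7 of 12 alternatives, *Kif20a* and *Kif20b* under 5, *Kif22* under 4 and *Kif23* under 3, with adjusted p-values of 0.00526 to 1. No called kinesin turned its direction under any alternative.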

Other observations

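Many ratios were exactly 1 in experiments 2 and 3, because arrays of these experiments held the same value for a probe set. At 24 h this was so for 12 of 37 kinesins in experiment 2, 11 in experiment 3 and 0 in experiment 1, and at 6 h for 11, 17 and 0. Over all 45037 probe sets the numbers at 24 h were 21816, 14359 and 566 in experiments 2, 3 and 1. None of the 9 bright mitotic kinesins had such a ratio at 24 h, while 1 in experiment 2 and 3 in experiment 3 had it at 6 h. Its part in the spread between arrays was not tested.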
